A study of Mus musculus with 9 samples.

Results

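CC chemokines are small secreted proteins that draw leukocytes towards the cells that release them, and they act through CC receptors on the cells that respond. Ccl3, Ccl4, Ccl6 and Ccl9 belong to the macrophage inflammatory protein type, Ccl2, Ccl7 and Ccl12 to the monocyte chemoattractant type that binds Ccr2, and Ccl5 is made mainly by T and NK cells. In the brain, microglia are a known source of Ccl3 and Ccl4 when they are activated, and Ccr2 marks monocytes that enter from the blood.

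The genes described here are the 8 ligands Ccl2, Ccl3, Ccl4, Ccl5, Ccl6, Ccl7, Ccl9 and Ccl12 and the receptor Ccr2, 9 of the 32285 mouse genes in the count tables. Each symbol stood in 1 row of the tables. The genes were chosen by earlier results of these same data, in which Ccl4 and Ccl12 led a cluster of tumor microglia, so every fold change and p-value below describes the tumors and is no independent support. The samples were brain tumors of 5 EP ZFTA-RELA mice (genotype NestinCreERT2;Fus1) and brains of 4 control mice (NestinCreERT2;TdT), all aged 6 to 8 weeks. The mice of both groups carried NestinCreERT2, a tamoxifen-inducible Cre recombinase expressed in Nestin-positive neural precursors, and TdT is named in the genotype of the controls alone. Tissue was dissociated, freed of debris on Percoll, sorted and measured by droplet-based 5′ single-cell RNA sequencing, in which unique molecular identifiers (UMIs) count captured transcripts. The cells were not limited to leukocytes, since most control cells were gated as neurons (below). Each mouse was 1 sample.

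In microglia-gated cells, Ccl2, Ccl3, Ccl4, Ccl6 and Ccl12 were higher in all 5 tumors than in any control. Ccl4 was the ligand with most UMIs in 3 tumors and Ccl12 in the other two. Ccl9 differed by less than the spread between mice there, and Ccr2 was close to 0 in microglia-gated cells of either group. Ccl2 and Ccl7 were also held by macrophage-gated and mural-gated cells of some tumors, and Ccl5 by T and NK-gated cells.

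The 8 ligand genes lie on mouse chromosome 11 in the mm10 (GRCm38) build that the files use. By the GENCODE annotation, Ccl2, Ccl7 and Ccl12 stand within 67.8 kb (chr11:82035571-82103400), and Ccl5, Ccl9, Ccl6, Ccl3 and Ccl4 within 139 kb (chr11:83525778-83664683), with 1422 kb between the groups. Ccr2 is on chromosome 9 (chr9:124101950-124113557). All 9 are protein-coding. A gene on the opposite strand overlaps Ccl2 (Gm17268) and Ccl6 (E230016K23Rik), and how the counting treated strand was not given in the sources used here. None of the 8 ligands shared a stretch of 31 bases with another CC gene listed here. Ccr2 shared some such stretches with related genes, so its counts are less certain.

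The 250 bases before the start were at hand for 5 of the 9 genes, from RefSeq on GRCm38.p6. The RefSeq start differs from the GENCODE one for 2 genes. The Ccr2 window (chr9:124101933-124102182) lies for the most part past the GENCODE start at 124101950. The Ccl3 window begins at 83649379, some bases beyond the GENCODE start at 83649355. They are shown for Ccl3 and Ccl12, ligands that rose in tumor microglia, and for Ccl9, a ligand for which no change was called there. Each is written 5′ to 3′ towards the gene. Capitals mark matches, on either strand, to the TATA box letters TATAAA and to the AP-1 type letters TGANTCA.
Ccl3 (chr11:83649379-83649628, minus strand): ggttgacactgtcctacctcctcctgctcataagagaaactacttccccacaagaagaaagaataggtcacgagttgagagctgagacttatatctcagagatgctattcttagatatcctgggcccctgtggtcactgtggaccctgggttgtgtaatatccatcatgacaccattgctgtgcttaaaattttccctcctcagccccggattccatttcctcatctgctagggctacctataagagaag
Ccl12 (chr11:82101595-82101844, plus strand): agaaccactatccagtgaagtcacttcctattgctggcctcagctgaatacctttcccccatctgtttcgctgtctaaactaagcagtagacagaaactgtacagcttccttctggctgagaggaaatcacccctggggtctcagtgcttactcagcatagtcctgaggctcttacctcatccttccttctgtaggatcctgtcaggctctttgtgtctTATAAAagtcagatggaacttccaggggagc
Ccl9 (chr11:83578637-83578886, minus strand): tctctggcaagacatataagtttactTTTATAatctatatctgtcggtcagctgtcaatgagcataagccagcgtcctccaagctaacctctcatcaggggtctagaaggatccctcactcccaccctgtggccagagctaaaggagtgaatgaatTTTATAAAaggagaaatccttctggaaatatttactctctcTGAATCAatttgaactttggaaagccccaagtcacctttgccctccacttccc

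Besides these, 3 motifs were searched on both strands. The NF-kB type was read as GGGA, any 2 bases and then TTCC. The C/EBP type was TTGC, any 2 bases and then AA, and the interferon response type was GAAA, any 2 bases and then GAAA. Ccl12 held 1 TATA box match, whose first base lay 31 bases before the start. Ccl9 held 3 TATA box matches, of which 2 overlapped on opposite strands, and 1 match to the AP-1 type, whose first base lay 53 bases before the start. No match to any of the 5 motifs was found in the windows of Ccl3, Ccl6 and Ccr2. Of 32851 windows of the same length, 12.4% held the TATA box, 6.75% the AP-1 type, 1.21% the NF-kB type, 9.56% the C/EBP type and 2.98% the interferon response type. A match is a description of letters and says nothing of binding.

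Between 3982 and 5927 cells were kept per control and between 1577 and 5101 per tumor, with median UMIs per kept cell of 2056 to 4190.5 and 2066.5 to 6520. Kept libraries of different mice shared at most 10 cell barcodes, counted in 28 pairs that leave out control 4. Cells were assigned to a type when at least 3 of the 8 markers of its list were detected and more than of any other list. None of the 9 genes was a marker. Neuron-gated cells made up 89.6% to 92.8% of the control cells and 0.0196% to 33.3% of the tumor cells. Progenitor-gated cells numbered 1 over all controls and made up 1.73% to 46.6% of the tumor cells. Values below are UMIs of the gene per 1000000 UMIs of the same cells (CPM), which are not scaled by gene length. Log2 differences come from edgeR fits with TMM scaling between libraries, so they need not equal the ratio of the CPM printed beside them.

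Microglia-gated cells numbered 118, 103, 81 and 97 in the controls and 219, 421, 295, 265 and 271 in the tumors. They made up 1.99% to 2.08% of the control cells and 5.20% to 18.7% of the tumor cells. All 8 microglia markers were detected in every mouse, with summed levels of 8991 to 12001 CPM in controls and 5913 to 14549 CPM in tumors. The same cells also held macrophage markers, at 51.5 to 128 CPM (4 or 5 of 8 detected) in controls and 714 to 6538 CPM (6 to 8 of 8) in tumors. Neuron markers were at 2532 to 3107 CPM in controls and 81.8 to 868 CPM in tumors. The part of these differences in the results below was not tested. Few cells stood at the edge of the gate, since 0 to 7 per mouse held exactly 3 markers, but 60 cells of tumor 2 and 38 of tumor 4 had as many macrophage as microglia markers and stayed ungated.

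Of the 9 genes, 7 passed the filter on low counts in microglia-gated cells, and 6 of these were called higher in tumors and 0 lower (edgeR quasi-likelihood test, Benjamini-Hochberg adjusted p under 0.05 over 8214 genes). Over all genes tested there, 21.0% were called higher and 19.4% lower. The median log2 difference was 4.47 over the 7 genes that passed and 0.07 over all genes tested. Ccl7 and Ccr2 did not pass the filter. Every tumor lay above every control for 7.89% of all genes tested, and for Ccl2, Ccl3, Ccl4, Ccl6 and Ccl12 among the 7. The genes were chosen for this contrast, so nothing is read from their count.

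**Figure D1:**
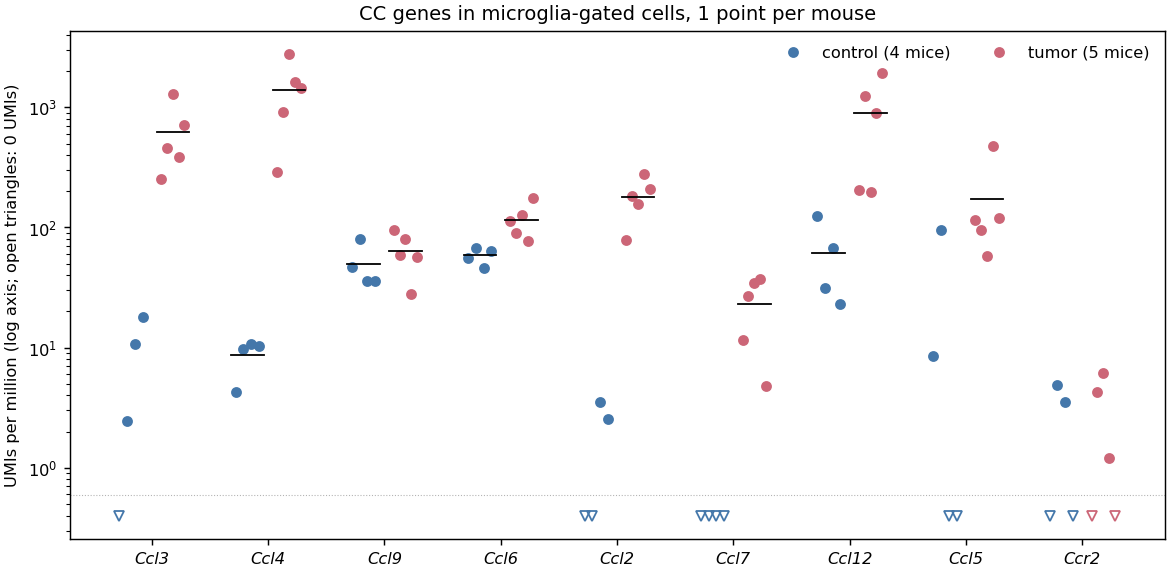
Each point is the level of 1 gene in the microglia-gated cells of 1 mouse, in CPM on a log axis, with controls in blue and tumors in red. Black bars are group means where no mouse was at 0, and open triangles are mice with 0 UMIs. All tumor points of Ccl3, Ccl4, Ccl6, Ccl2, Ccl7 and Ccl12 lie above all control points, and those of Ccl9, Ccl5 and Ccr2 do not. For Ccl7 the controls had 0 UMIs, which allows up to 12.9, 7.29, 10.7 and 7.71 CPM (3 counts) in controls 1 to 4. Tumor 5 (4.83 CPM) lies under all of these limits and tumor 1 (11.6 CPM) under that of control 1.

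Ccl4 encodes MIP-1 beta, which attracts monocytes and T cells. In microglia-gated cells its level was 4.29, 9.72, 10.7 and 10.3 CPM in the controls and 291, 920, 2762, 1616 and 1446 CPM in tumors 1 to 5. The groups did not overlap, and the lowest tumor, tumor 1, was far above every control. The means were 8.74 CPM ± 2.99 (SD, n = 4) and 1407 CPM ± 917 (SD, n = 5). The log2 difference was 7.75 (SE 0.71) with an adjusted p of 4.73e-05 by edgeR. The control values rest on 12 UMIs in all.

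Ccl3 encodes MIP-1 alpha, which binds Ccr1. Its microglia levels were 0, 2.43, 10.7 and 18.0 CPM in the controls. In the tumors they were 251, 457, 1285, 387 and 717 CPM, all above the controls. The log2 difference was 6.67 (SE 0.69, adjusted p = 5.98e-05, edgeR). The 2 genes had a like order over the tumors at both ends, with tumor 1 lowest and tumor 3 highest for each. The ratio of Ccl4 to Ccl3 UMIs in tumors 1 to 5 was 1.16, 2.01, 2.15, 4.18 and 2.02.

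Ccl6 and Ccl9 are rodent ligands of Ccr1. As shares of UMIs, both were above Ccl3 and Ccl4 in the microglia of every control. Ccl6 was at 55.8, 68.0, 46.3 and 64.3 CPM in controls and at 112, 89.7, 127, 76.9 and 175 CPM in tumors. The groups did not overlap, and the log2 difference was 1.45 (SE 0.25, adjusted p = 0.000822, edgeR). The plain means, 58.6 CPM in controls and 116 CPM in tumors, differed by less than this fitted value. Ccl9 was at 47.2, 80.2, 35.6 and 36.0 CPM in controls and at 95.9, 58.7, 80.4, 27.9 and 56.3 CPM in tumors. Here the groups overlapped, tumor 4 being the lowest of all mice, and the log2 difference of 0.78 (SE 0.34, adjusted p = 0.0826, edgeR) did not pass. The plain means of 49.7 CPM in controls and 63.8 CPM in tumors again differed by less than the fitted value. The adjusted p of Ccl9 fell to 0.0469 with no filter on low counts, to 0.0439 without control 2 and to 0.0302 without tumor 4.

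Ccl12 encodes MCP-5, a mouse ligand of Ccr2. Its microglia levels were 124, 31.6, 67.7 and 23.1 CPM in the controls and 205, 1239, 199, 904 and 1930 CPM in the tumors. All tumors were above all controls, but tumors 1 and 3 stood much closer to the highest control than the other 3 did. In that control, control 1, 1 cell held 19 of the 29 Ccl12 UMIs. The log2 difference was 4.47 (SE 0.80, adjusted p = 0.000949, edgeR). The order over the tumors was not that of Ccl4, since tumor 3 was highest for Ccl4 and lowest for Ccl12.

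Ccl2 encodes MCP-1, the main monocyte chemoattractant acting through Ccr2. In microglia-gated cells it was at 0, 0, 3.56 and 2.57 CPM in controls, from 2 UMIs, and at 79.3, 182, 156, 278 and 210 CPM in tumors. Pooled over the mice of a group, the tumor level was 127 times the control level (35.1 to 1051, exact 95% interval for counting error only). The edgeR adjusted p was 4.73e-05. Ccl7, which encodes MCP-3, had 0 UMIs in the microglia of every control and levels of 11.6, 26.7, 34.6, 37.6 and 4.83 CPM in tumors. The pooled tumor level, 26.1 CPM, was 11.4 times the limit that 0 UMIs allow over the control group (3 counts, 2.28 CPM). The exact 95% lower limit of the ratio, which also takes in the counting error of the tumors, was 9.22.

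Ccl5, or RANTES, was at 8.58, 94.7, 0 and 0 CPM in control microglia and at 116, 95.4, 57.5, 478 and 121 CPM in tumor microglia. Control 2 lay above tumor 3, and tumor 4 was the highest of all mice. The log2 difference was 3.15 (SE 0.96, adjusted p = 0.0195, edgeR). The call was lost with DESeq2 (adjusted p = 0.0642), with limma voom (0.0959) and without control 1, 3 or 4 (0.0740, 0.0568 and 0.0664). Without control 2 the log2 difference was 6.66. All 39 Ccl5 UMIs of control 2 were in 3 of its 103 microglia-gated cells. T and NK markers in microglia-gated cells were at 7.71 to 10.7 CPM in controls and at 0 to 3.03 CPM in tumors.

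Ccr2, the receptor of Ccl2, Ccl7 and Ccl12, gave 0, 2, 1 and 0 UMIs in control microglia and 0, 9, 11, 2 and 0 UMIs in tumor microglia. Both groups were at or near the limit of detection there. The share of microglia-gated cells with a Ccr2 UMI was 0% to 1.94% in controls and 0% to 2.71% in tumors.

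The 8 ligands together made up 0.0154% to 0.0287% of the UMIs of control microglia and 0.116% to 0.470% of those of tumor microglia. Their makeup differed between tumors. In tumor 3 Ccl4 took 58.7% of the ligand UMIs, Ccl3 27.3% and Ccl12 4.24%. In tumor 5 Ccl12 took 41.4% and Ccl3 15.4%, with Ccl4 between them. Ccl12 also led in tumor 2, with 40.4% against 30.0% for Ccl4. Tumor 4 had the largest shares of Ccl5 (12.6%) and of Ccl2 (7.31%). In tumor 1, which held the fewest ligand UMIs, Ccl4 (25.0%), Ccl3 (21.6%) and Ccl12 (17.6%) lay closer together. In controls, with 49 to 118 ligand UMIs per mouse, the leading ligand was Ccl12 in controls 1 and 3, Ccl5 in control 2 and Ccl6 in control 4.

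**Figure D2:**
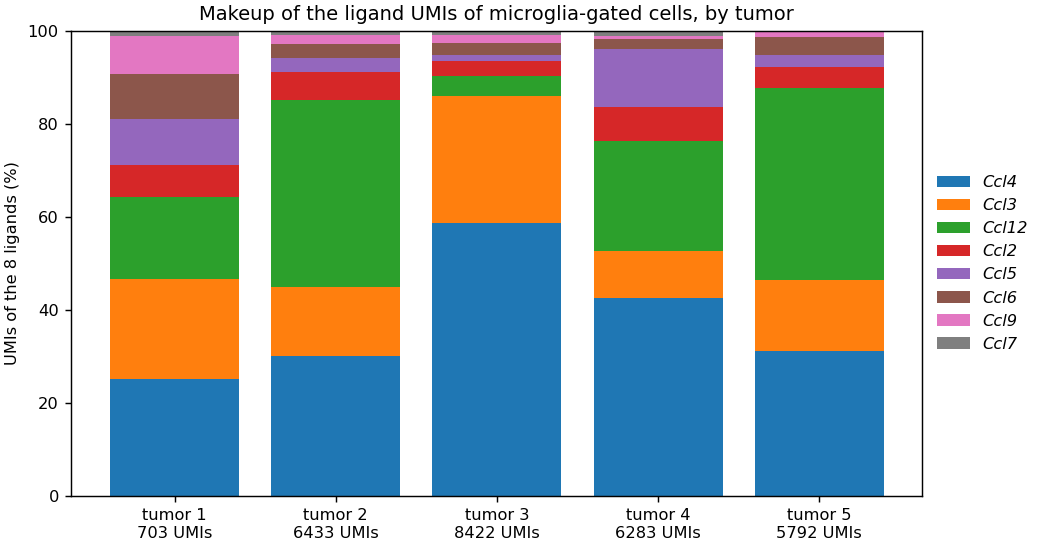
Each bar is 1 tumor and shows what percentage of the UMIs of the 8 ligands in its microglia-gated cells came from each gene, with the number of these UMIs under the bar. Ccl4 is the largest part in tumors 1, 3 and 4 and Ccl12 in tumors 2 and 5, and Ccl7 stays under 1% in all 5.

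The rise was seen in shares of cells as well as in UMIs. For equal depth each cell was thinned to 1500 UMIs and shallower cells were left out. Then Ccl4 was detected in 0% to 2.91% of control microglia and in 13.1%, 27.1%, 27.8%, 41.5% and 24.4% of tumor microglia. Without thinning these were 0.847% to 4.12% and 16.9% to 55.8%. Ccl12 was detected after thinning in 2.06% to 9.88% of control and 12.1% to 43.8% of tumor microglia, and Ccl3 in 0% to 3.09% and 18.3% to 25.7%. In tumor neuron-gated cells, which should lack these genes, the thinned shares were 0.347% to 5.24% for Ccl4, 0.520% to 2.24% for Ccl12 and 0.347% to 1.49% for Ccl3, over 4 tumors with more than 1 such cell. Median UMIs in those tumors were 1722 to 2876.5 in neuron-gated and 2431 to 4228 in microglia-gated cells. For Ccl7 the thinned shares of tumor microglia, 0.370% to 4.91%, were low.

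A small number of cells carried most of the ligand UMIs. The cells that held 50% of the Ccl4 UMIs numbered 7 of 219, 14 of 421, 12 of 295, 20 of 265 and 9 of 271 microglia-gated cells in tumors 1 to 5. The highest cell of tumor 3 held 303 Ccl4 UMIs. For Ccl12, 11, 21, 5, 25 and 15 cells held 50%. For Ccl6, with fewer UMIs (68 to 227 per tumor), 21, 29, 19, 22 and 19 cells held 50%, more than for Ccl4 in 5 of 5 tumors and more than for Ccl12 in each tumor but tumor 4. After thinning, 9.86% to 29.4% of tumor microglia held at least 3 ligand UMIs and 22.6% to 49.5% held none, while no control microglia held 3 and 76.7% to 85.6% held none.

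Ccl3 and Ccl4 were often found in the same cells. In thinned microglia, Ccl3 was detected in 49.1% to 70.5% of cells with Ccl4 and in 6.37% to 10.8% of cells without it, and the difference had this sign in 5 of 5 tumors. Ccl2 was detected in 9.38% to 30.2% of cells with Ccl12 and in 2.43% to 12.8% of those without. For Ccl12 in cells with and without Ccl4 the ranges were 15.4% to 54.5% and 10.8% to 36.5%, again higher with Ccl4 in 5 of 5 tumors. For Ccl9 in cells with and without Ccl6 they were 4.35% to 16.4% and 4.13% to 12.1%. Other pairs did not go this way. Ccl3 and Ccl2 by Ccl5, and Ccl12 by Ccl6, were each higher in cells with the other gene in 2 of 5 tumors. These shares are descriptions over cells of the same mice.

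**Figure D3:**
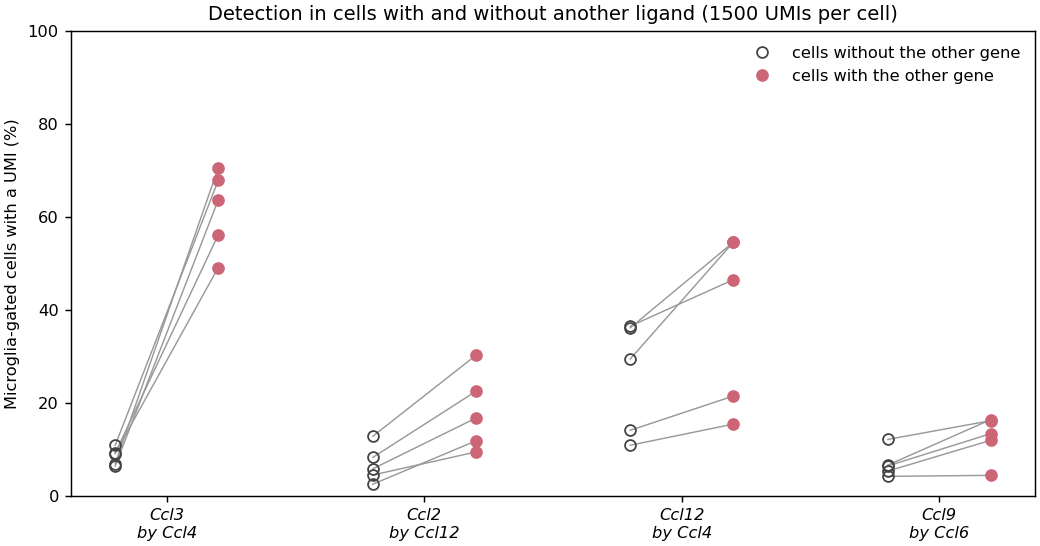
For each of 4 pairs of ligands, open circles give the percentage of microglia-gated cells with the upper gene among cells without the lower gene, and filled circles the same among cells with it, at 1500 UMIs per cell. A line joins the 2 values of a tumor. Ccl3 by Ccl4 moves from at most 10.8% to at least 49.1%, the widest step of the 4 pairs.

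Genes of the immediate early and heat shock list, which respond within minutes to stimulation and to tissue dissociation, were for the most part also higher in tumor microglia. Of 16 listed genes tested, 14 were called higher in tumor microglia and 0 lower, against 21.0% and 19.4% of all genes tested. Their median log2 difference was 3.37, against 0.07 over all genes. With 1 mouse left out 10 to 14 were called higher, and for 6 of the 16 every tumor lay above every control. The heat shock genes Hspa1a and Hspa1b were high in tumor 3 alone (2558 and 2678 CPM, against 0 to 68.2 CPM in the other tumors and 4.29 to 20.6 CPM in controls). They were called with all mice and without tumor 1, but not without control 1, 2, 3 or 4, and without tumor 2, 3, 4 or 5 they did not pass the filter. Nfkbia, the NF-kB inhibitor that is itself an NF-kB target, differed by 3.46 on the log2 scale (SE 0.38, adjusted p = 7.12e-05, edgeR) and Atf3 by 5.85 (SE 1.14, adjusted p = 0.00158). The summed level of the list was 863, 858, 1702 and 1134 CPM in controls and 3551, 3673, 13401, 4374 and 1990 CPM in tumors. Without the Hspa genes tumor 3 was at 8164 CPM. Tumor 3, with the highest Ccl3 and Ccl4, also had the highest level of this list, and tumor 5, with the highest Ccl12, the lowest of the tumors. The part of dissociation in the ligand levels was not tested. Without tumor 3 the same number of 6 ligands was called higher in microglia. Leaving out tumor 3 is no test of dissociation, since the list level of each other tumor was also above all controls.

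Over 39 sums of mouse and cell type with at least 50 cells, the genes whose log2 levels followed Ccl3 plus Ccl4 most closely were C5ar1 (r = 0.90), Il1b (0.89) and Il1a (0.89). For Ccl2, Ccl7 and Ccl12 together they were Cd52 (0.93), Ifi30 (0.90) and Gmfg (0.89), and for Ccl6 plus Ccl9 Fyb, Fcgr3 and Mpeg1 (each 0.98). These are descriptions among 10784 genes, and the sums of a mouse share a library.

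Macrophage-gated cells numbered 1 to 3 per control and 12, 84, 19, 40 and 2 in tumors 1 to 5, so only values are given. All were from few cells. Ccl12 was at 598, 329, 1757, 658 and 758 CPM and Ccl2 at 3014, 128, 941, 242 and 1011 CPM. Ccl7 was at 2301, 61.9, 328, 206 and 126 CPM, above the microglia-gated cells of the same tumor in tumors 1 to 4. The value of tumor 5 rests on 1 UMI, under the limit of 3 counts. In tumor 1, 12 macrophage-gated cells held 71.2% of all Ccl2 UMIs and 93.5% of all Ccl7 UMIs of the tumor. Ccl4 was at 874, 147, 2538, 284 and 0 CPM there, above the microglia-gated cells in tumor 1 alone, where all 38 UMIs were in 1 cell. Ccl3 was at 1081, 58.0, 1544, 77.9 and 0 CPM, above the microglia-gated cells in tumors 1 and 3. Ccl9 was at 437, 118, 257, 89.6 and 0 CPM, above the microglia-gated cells in tumors 1 to 4. Ccr2 was at 0, 11.6, 35.5, 42.9 and 0 CPM.

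Mural-gated cells, the pericytes and smooth muscle of vessels, held Ccl2 in some tumors. The level was 1874 CPM in 46 cells of tumor 2 and 1250 CPM in 47 cells of tumor 4. In tumor 3 none of 39 mural-gated cells held a Ccl2 UMI (exact 95% interval up to 9.03%), and in tumor 5, 1 of 13 did. Mural-gated cells thus held 34.6% of the Ccl2 UMIs of tumor 2 and 25.7% of those of tumor 4, but 0%, 0% and 0.196% of those of tumors 1, 3 and 5. Macrophage-gated cells held 71.2%, 5.02%, 27.0%, 4.79% and 1.57% of the Ccl2 UMIs of tumors 1 to 5. Microglia-gated cells held 26.1% to 71.2%, and ungated cells held 11.8% over all tumors. Other gates held more Ccl2 than macrophage-gated cells in some tumors, with 11.2% in endothelial-gated cells of tumor 4 and 21.2% in astrocyte-gated and 7.84% in OPC-gated cells (oligodendrocyte precursors) of tumor 5. For Ccl3, Ccl4 and Ccl12 the microglia-gated cells held 84.0%, 83.2% and 74.8% of the tumor UMIs, although they were 9.35% of the tumor cells. Of the Ccl7 UMIs, mural-gated cells held 79 in tumor 2, 8 in tumor 4 and 0 in tumors 1, 3 and 5. Ungated cells held 0%, 20.8%, 1.98%, 45.0% and 3.85% of the Ccl7 UMIs of tumors 1 to 5. For Ccr2 the ungated shares were 0%, 35.0%, 11.1%, 33.3% and 100%, the last from 7 UMIs.

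T and NK-gated cells were few but rich in Ccl5. In tumor 3, 9 such cells held 531 Ccl5 UMIs, or 80.1% of those of the tumor, and in tumor 1, 7 cells held 91, or 42.5%. In tumor 4, where microglia-gated Ccl5 was highest, 5 cells held 47, or 3.57%, and in tumor 2, 3 cells held 21, or 4.43%. Microglia-gated cells held 32.7%, 42.2%, 15.5% and 60.0% of the Ccl5 UMIs of tumors 1 to 4. In tumor 5, with no T and NK-gated cell, 9 astrocyte-gated cells held 48.9% of the Ccl5 UMIs and microglia-gated cells 42.9%. Over all tumors 22.9% of Ccl5 UMIs and 15.9% of Ccr2 UMIs were in 24 T and NK-gated cells. Without tumor 3 these shares were 6.76% and 5.21%, from 15 cells. The 7 dendritic-gated cells, from tumors 2 and 4, held 11 Ccr2 UMIs, and 12 neutrophil-gated cells held 52 Ccl6 UMIs.

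**Figure D4:**
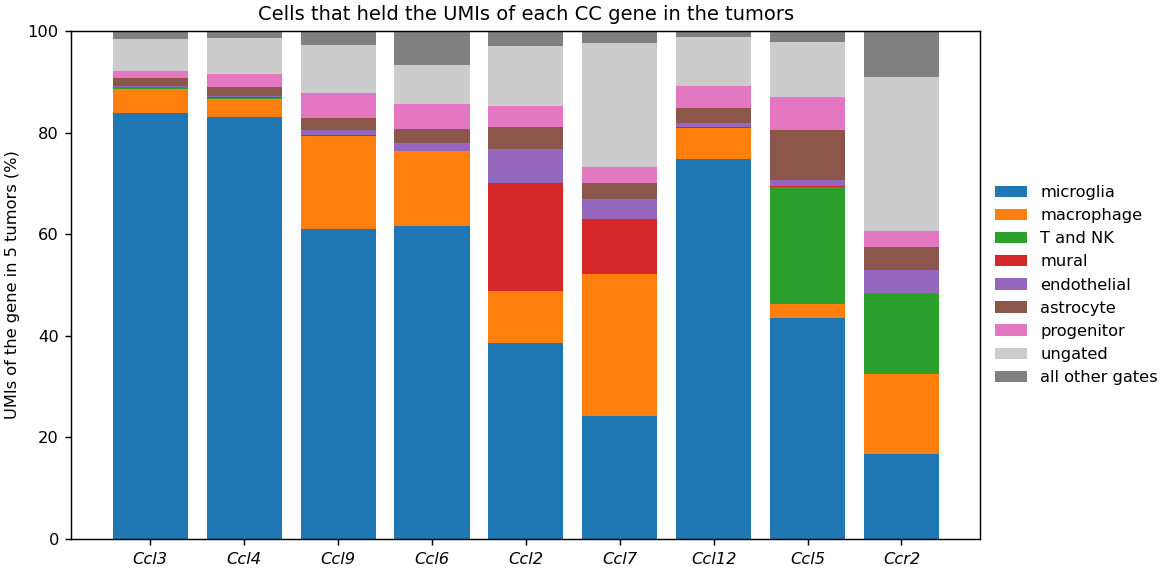
Each bar is 1 gene and shows the percentage of its UMIs in the 5 tumors that was held by cells of each gate. Microglia-gated cells hold 84.0% for Ccl3 and 83.2% for Ccl4 but 24.2% for Ccl7 and 16.7% for Ccr2.

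Over all kept cells, 8 of the 9 genes were called higher in tumors and 0 lower by the same edgeR test over 17582 genes, of which 32.3% were called higher and 29.5% lower. In these whole-library sums more cells of a type and more RNA per cell cannot be told apart, and the share of microglia-gated cells was itself higher in every tumor. Ccl4 was at 0.533 to 1.21 CPM in controls and at 38.5, 152, 796, 96.6 and 123 CPM in tumors (log2 difference 8.32, SE 1.02, adjusted p = 0.000268). Ccl2 was at 0.0969 to 0.372 CPM in controls and at 31.2, 78.0, 57.3, 34.5 and 31.9 CPM in tumors (log2 difference 7.84, SE 0.55, adjusted p = 5.98e-05). For 7 of the 9 genes every tumor lay above every control, as it did for 23.8% of all genes tested.

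Ccl7 was at 0.0485 to 0.372 CPM in controls and at 18.1, 15.1, 14.7, 8.24 and 1.62 CPM in tumors. Its log2 difference was 5.93 (SE 0.80, adjusted p = 0.000377). Ccl9, not called in microglia, was called in all kept cells with a log2 difference of 2.81 (SE 0.60, adjusted p = 0.00324), while tumor 4 at 2.40 CPM stayed below control 2 at 3.07 CPM. Ccr2 was at 0.695, 1.26, 1.53 and 0.824 CPM in controls and at 0.437 to 5.25 CPM in tumors, highest in tumor 3 and lowest in tumor 5. These overlapped, and the log2 difference of 1.06 (SE 0.65, adjusted p = 0.178) did not pass.

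**Figure D5:**
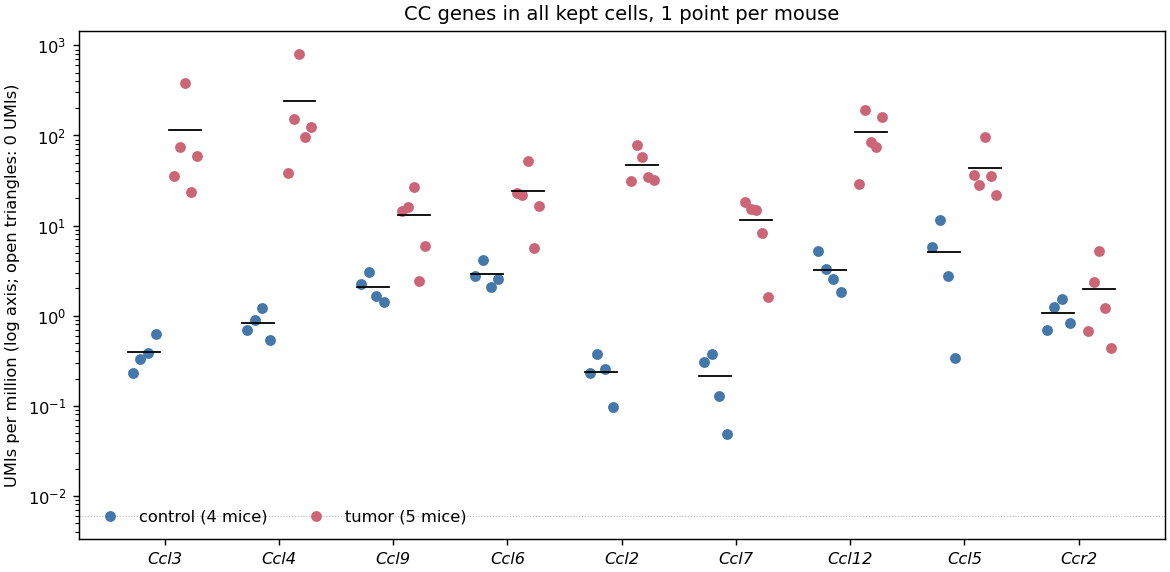
Each point is the level of 1 gene summed over all kept cells of 1 mouse, in CPM on a log axis, with controls in blue and tumors in red and black bars at the group means. The tumor points lie above all control points for each ligand but Ccl9, and the groups overlap for Ccl9 and Ccr2.

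The other CC genes were counted from lists of 13 ligands and 14 receptors. In all kept cells 8 of the ligands were tested, of which 3 were called higher (Ccl11, Ccl19 and Ccl24) and 3 lower (Ccl25, Ccl27a and Ccl28). Ccl11, the eotaxin gene, was at 0 to 0.0772 CPM in controls and at 1.36, 98.9, 0.292, 32.4 and 10.7 CPM in tumors. Ccl19 and Ccl27a have near-identical copies in the mouse genome, so their counts are uncertain. Of 7 receptors tested, 3 were called higher, of which Ccr1 and Ccrl2 are reported here, and 2 lower (Ccr9 and Ackr1). Over all genes tested in all kept cells 32.3% were called higher and 29.5% lower.

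Within microglia-gated cells Ccrl2, an atypical receptor of the family, rose by 5.44 on the log2 scale (SE 0.91, adjusted p = 0.000614, edgeR). Ackr1, a decoy receptor known from vessels and red cells, fell by 2.30 (adjusted p = 0.00279). Only 1 of the 13 other ligands passed the filter in microglia, Ccl27a, which fell by 2.12 (adjusted p = 0.000129, edgeR). Ackr1 and Ccl27a were also called lower in all kept cells. Neuron markers in microglia-gated cells were lower in tumors too (81.8 to 868 CPM, against 2532 to 3107 CPM in controls). The part of RNA from other cells in these falls was not tested. Ccl24, which did not pass, was at 4.29, 4.86, 0 and 2.57 CPM in controls and 14.9, 12.9, 90.4, 23.0 and 12.9 CPM in tumors.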

How the data were processed

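Single-cell libraries of 5 tumors and 4 controls were analysed. The authors aligned and counted the reads with Cell Ranger (version 7 in the submitters' processing notes) on mm10, and deposited raw UMI counts, whole numbers that were not normalized. Groups and replicates follow the sample labels. The genes and lists were chosen with earlier results of these data known. Results for 1 listed receptor are not reported here.

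The 10000 largest barcodes of a library were taken (all 9001 in tumor 3), and those with 200 to 6000 genes stayed. Deposited barcodes numbered 75222 to 86516 per control and 9001 to 26341 per tumor, so this cut took a smaller part of each control. A Gaussian mixture of 2 components (scikit-learn 1.9.0) on mitochondrial share and gene number dropped the component with more mitochondrial UMIs. It was fitted per library, so its strictness differed. The dropped component had a mean mitochondrial share of 16.1% to 17.3% in controls and 22.4%, 16.2%, 12.4%, 3.67% and 4.84% in tumors. In tumors 4 and 5 this was below the mean of the component that stayed in every control (7.59% to 8.72%). The cells with the highest Scrublet scores (Scanpy 1.11.5) were then dropped as doublets, at a rate of 0.8% for every 1000 cells. Types were gated by 14 lists of 8 markers, since no deposited cell annotation was used. The barcode list of control 4 (80865) was shorter than its matrix (80887 columns), so columns were used there in place of barcodes.

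Counts were added up within each mouse, for all kept cells and for microglia-gated cells, and a sum needed at least 20 cells. Testing used edgeR 4.0.16 (quasi-likelihood, TMM, filterByExpr) in R 4.3.3, with Benjamini-Hochberg adjustment over all genes tested and a threshold of 0.05. The labels do not tie mice to litters or batches, so p-values measure the spread between these samples. Standard errors are the log2 difference over the root of its F statistic. The steps were tested on simulated counts. Alternatives were DESeq2 1.42.0, voom in limma 3.58.1, no count filter, a replicate block, each mouse left out, a 10% mitochondrial limit, doublets kept, 5000 barcodes, gates of 2 or 4 markers, and cells thinned to 1500 UMIs. A test of macrophage-gated against microglia-gated cells required 3 tumors with at least 20 cells of each gate. Only 2 had them, so it was not run. Named genes were the 9 genes, every gene of the lists that passed the filter, and the 3 genes most like each ligand group by Pearson correlation of log2(CPM + 10), among genes with a mean of at least 10 CPM. Intervals are exact (Clopper-Pearson, 95%) and, like floors of 3 counts, cover counting error only.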

Additional observations from a re-analysis of the deposited data

Results flagged for a closer look

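In 6 of 35 groups of values 1 mouse stood apart from the others of its group by Dixon's criterion, where chance gives about 1 in 20. In all kept cells this was tumor 3 for Ccl3 (380 CPM), Ccl4 (796 CPM) and Ccl5 (96.7 CPM). Of the Ccl5 UMIs of tumor 3, 80.1% were in 9 T and NK-gated cells. Among microglia-gated cells it was control 1 for Ccl4 (4.29 CPM, from 1 UMI), control 2 for Ccl5 (94.7 CPM) and tumor 4 for Ccl5 (478 CPM).

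The 3000 barcodes with the fewest UMIs in each library, none of which was kept as a cell, also held the ligands. Summed over the 8 ligands they gave 7.01 to 15.5 CPM in controls and 48.5, 192, 285, 326 and 94.6 CPM in tumors 1 to 5. The lowest tumor lay above the highest control. Over all kept cells the same sum was 7.46 to 23.8 CPM in controls and 225, 576, 1510, 280 and 421 CPM in tumors. In tumor 4 the kept cells were thus below these barcodes, and in controls 1 and 4 only slightly above them. The smallest deposited barcode of a library held 468 to 517 UMIs. Whether the barcodes with the fewest UMIs were cells or free RNA was not tested. The summed level in microglia-gated cells was 11.7 to 49.3 times that of these barcodes in the same tumor and 15.5 to 23.9 times in the same control. Single ligands stood closer, such as Ccl7 in tumor 4 (37.6 CPM in microglia-gated cells, 13.4 CPM in these barcodes) and in tumor 5 (4.83 and 2.21 CPM), and Ccl5 (57.5 and 14.3 CPM) and Ccl6 (127 and 29.1 CPM) in tumor 3.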

How the results depend on the processing

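All 8 calls in all kept cells held under every alternative run. The number of genes called there (10875) was 8847 to 12226, and 9133 to 12011 with 1 mouse left out. In microglia-gated cells 3314 genes were called, 2684 to 3670 with 1 mouse left out and 1920 with cells thinned to 1500 UMIs, where 5540 were tested. The members called higher there numbered 6 in the main test, 5 with DESeq2 and with limma voom, 8 with no count filter and 6 to 8 with 1 mouse left out, where the genes differ, since Ccl5 was not called without control 1, 3 or 4. No member changed direction in any alternative. Limma voom called 1177 genes higher and 1684 lower in microglia, against 1721 and 1593. The median log2 difference of all genes there ranged from -0.03 to 0.20 over the alternatives, against 0.07.

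With the replicate block, 8 members were called in all kept cells and 6 in microglia-gated cells, and 8847 and 3007 genes in all. Correlations of same-numbered mice were -0.0064 to 0.052 in all kept cells and -0.072 to 0.11 in microglia-gated cells. Mice with different numbers were not compared, so whether the numbers mark shared litters or batches was not tested. The macrophage test was not run under any alternative, although 3 tumors had enough cells with a gate of 2 markers, a 10% mitochondrial limit or doublets kept. Depth limits Ccl2, Ccl3, Ccl4, Ccl7 and Ccr2 in control microglia, with 0 to 12 UMIs each over the group, and all macrophage-gated values.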
